A study of Rattus norvegicus with 8 samples.

Results

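The genes described are Grm2, Grm3, Grm4, Grm5, Grm7 and Grm8, 6 genes for metabotropic glutamate receptors, taken by their symbols from a count table of 28909 gene symbols. All 6 had more than 20 reads in at least 2 libraries and were among the 14309 genes tested. The receptors were measured by ribosome-depleted total RNA sequencing of embryonic hippocampal neurons from Sprague-Dawley rats, cultured on membrane inserts that keep the cell bodies on top while their processes extend beneath. RNA of the upper side (somata) and of the lower side (processes, which hold both dendrites and axons) was sequenced from control cultures, which received vehicle, and from cultures given the GABA-A receptor antagonist Picrotoxin (PTX) for 48 h, from day 18 to day 20 in vitro. Each of the 4 groups (somata control, somata PTX, processes control, processes PTX) had 2 libraries, and the labels do not say whether these came from separate cultures, so p-values measure the spread between these libraries only.

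Metabotropic glutamate receptors are G-protein-coupled receptors that respond to glutamate over a slower time course than the ion channel receptors. Group I, to which Grm5 belongs, couples to Gq and phospholipase C, sits mainly around the postsynaptic density and is tied there to Homer and Shank scaffolds. Group II (Grm2 and Grm3) and group III (Grm4, Grm7 and Grm8) couple to Gi/o, lower cyclic AMP, and in large part act at presynaptic terminals, where they reduce transmitter release. Grm3 and Grm5 are also known from astrocytes, and Grm7 is known from the active zone of hippocampal terminals.

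The libraries held 12290890 to 18455662 counts. Genes of the mitochondrial genome took between 22.6% and 26.7% of the counts in somata and between 68.5% and 72.5% in processes. A median tested gene had 268 to 319 reads per library in somata but 96 to 110 in processes, and the 6 receptors together had 3055 to 4580 and 2298 to 3899 reads. Levels are given in CPM, the counts relative to a library's total over the tested genes after TMM scaling, which equalizes libraries on their typical gene. They are not corrected for transcript length, so they are compared between libraries and not between receptors. In bulk RNA, fewer cells of a type and less RNA per cell cannot be told apart.

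Markers of the labelled neurons were present, with Map2 between 812 and 4690 CPM. Astrocyte markers were present as well: the 9 listed genes were all tested, and their summed level was 4120 to 4510 CPM in somata control, 3190 to 4240 CPM in somata PTX, 13400 to 15000 CPM in processes control and 11500 to 12700 CPM in processes PTX. Gfap was the largest part of this sum, with means of 1680, 1290, 10200 and 8250 CPM in the same order. All 8 oligodendrocyte lineage markers were also tested, with summed levels from 271 to 454 CPM in somata and 471 to 648 CPM in processes. Of the 6 microglia markers 5 were in the table and 0 passed the filter on low counts, with at most 27 reads of any of them in a library. Of 4 endothelial markers 1 was tested, Kdr, which was higher with PTX in somata (log2 fold change 1.41, adjusted p = 0.0102). Among 5 tested markers of GABAergic neurons, 2 were called higher with PTX in somata, Gad1 (0.82) and Gad2 (0.92), and Gad2 (0.92) also in processes. Not called in somata were Slc32a1 (-0.02, adjusted p = 0.976), Sst (0.31, adjusted p = 0.686) and Npy (1.27, adjusted p = 0.124). A fit with the replicate number as a block called 4 of the 5 higher in somata and 2 in processes. That block called 1031 of all 14309 tested genes higher in somata and 730 in processes. Of 5 glutamatergic markers 1 was called lower in somata, and 1 higher and 2 lower in processes. Over all tested genes, 2.09% were called higher and 1.5% lower with PTX in somata, and 1.64% higher and 2.1% lower in processes.

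Grm3 and Grm5 carried the clearest differences. Grm3 was 6.08-fold higher in processes than in somata of control cultures (log2 fold change 2.60, standard error 0.129) and fell with PTX in processes to 57.4% of control. Grm5 was 1.78-fold higher in processes than in somata and fell with PTX in somata to 61.1% of control. In the other compartment Grm3 was at 71.2% of control (somata) and Grm5 at 67.8% (processes), and neither passed. For neither gene did the PTX effect differ between the compartments in a direct test. The compartment difference of Grm5 depended on the TMM scaling and was negative with library size only. Grm7 and Grm2 were lower in processes than in somata, and no PTX difference of Grm2, Grm4, Grm7 or Grm8 passed the test. The comparisons share libraries (processes control, for example, enters both its PTX comparison and its comparison with somata), and their values are set side by side as each one's own. The plot of receptor levels by library shows them.

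**Figure D1:**
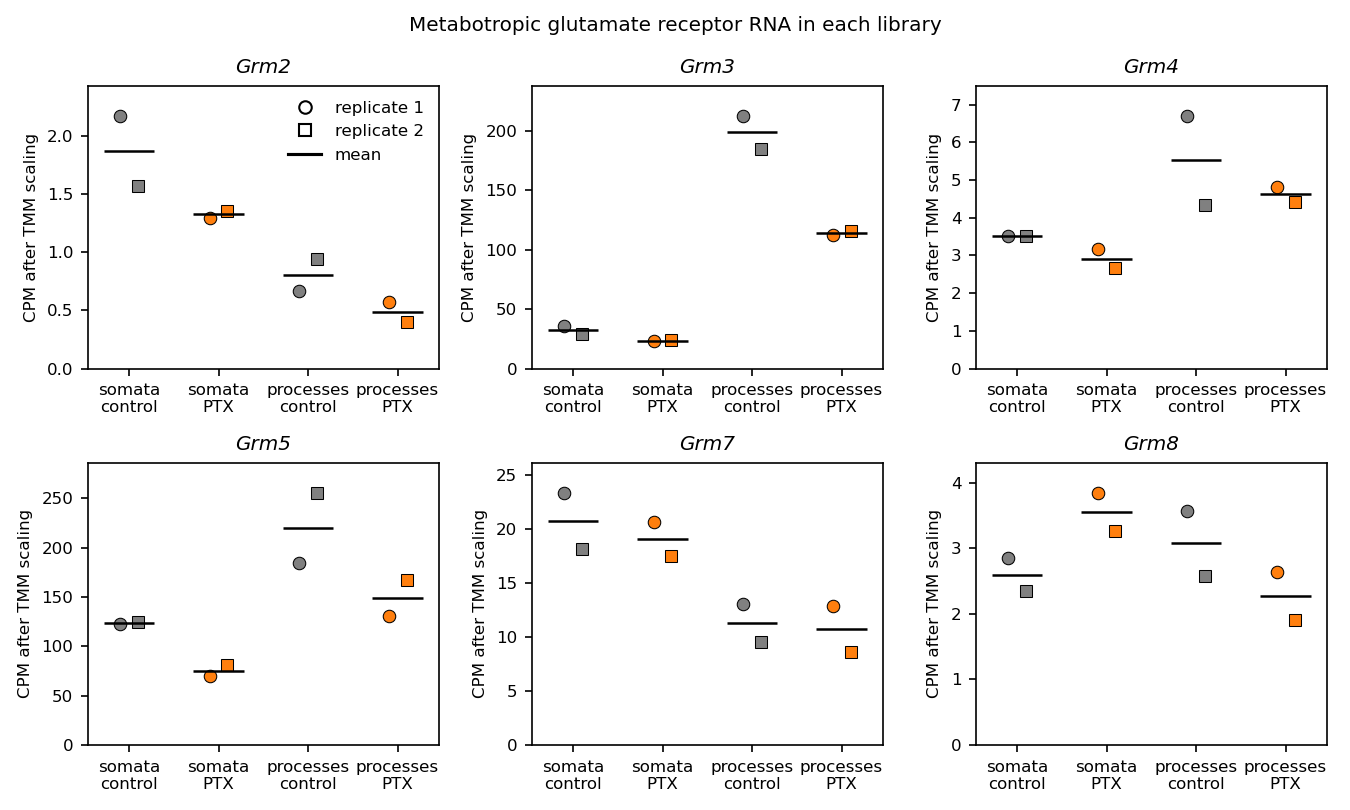
Level of each receptor in CPM after TMM scaling (vertical axes, each starting at 0) in the 4 groups, with circles for replicate 1, squares for replicate 2 and a bar for the mean of 2 libraries. Grm3 lies between 185 and 212 CPM in processes control and at 36 CPM or below in somata, whereas Grm7 is lower in every process library than in any somata library.

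Grm5 encodes mGlu5, the postsynaptic Gq-coupled receptor. Its level was 122 and 124 CPM in the somata control libraries and 69.9 and 80.9 CPM in the somata PTX libraries. In processes it was 184 and 256 CPM in control and 131 and 167 CPM after PTX. The PTX libraries lay below the control libraries in both compartments, and the process libraries lay above the somata libraries in both treatments.

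In somata the log2 fold change of Grm5 with PTX was -0.71 (standard error 0.167, 95% interval -1.08 to -0.34), with an adjusted p of 0.042 in edgeR's quasi-likelihood test. It was the only receptor of the 6 called in somata, where 3.59% of all tested genes were called and 1.5% were called lower. The fall of Grm5 in somata ranged from -0.83 to -0.62 when any 1 library was left out, but the call was lost without either of the 2 somata control libraries (adjusted p = 0.154 and 0.193) and without either of the 2 somata PTX libraries (adjusted p = 0.274 and 0.0928). With library size only as the scaling, the difference was -0.64 (adjusted p = 0.153).

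In processes Grm5 differed by -0.56 (standard error 0.168, interval -0.93 to -0.19) after PTX, which did not pass over all genes (adjusted p = 0.106). Without replicate 2 of processes control it was -0.31, and without replicate 1 of processes control -0.78. The replicate number was also added as a block, a fit with 1 shift between replicates 1 and 2 that all 4 groups share. With it the difference in processes was also -0.56 with an adjusted p of 0.000577, and that in somata was -0.72 with 1.63e-05. Between same-numbered libraries Grm5 was lower after PTX by 0.81 and 0.62 in somata and by 0.49 and 0.61 in processes on the log2 scale. The block raised the share of all tested genes called to 14% in somata and 11.2% in processes. A direct test of whether PTX acted on Grm5 unequally in the compartments (log2 fold change in processes less the one in somata) gave 0.15, with an interval from -0.37 to 0.67 and an adjusted p of 1.

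Grm3 encodes mGlu3, a Gi/o-coupled receptor of neurons and astrocytes that also responds to the peptide transmitter N-acetylaspartylglutamate (NAAG). Grm3 was measured at 36 and 29.4 CPM in somata control and at 22.8 and 23.7 CPM in somata PTX. In processes control it was 212 and 185 CPM, and in processes PTX 112 and 116 CPM. No groups overlapped.

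In processes the PTX difference of Grm3 was -0.80 on the log2 scale (standard error 0.123, interval -1.07 to -0.53, adjusted p = 0.0067), the only call among the receptors there. Among all tested genes 3.74% were called in processes and 2.1% were called lower. Leaving out replicate 1 of processes control gave -0.70 (adjusted p = 0.0629), and leaving out replicate 1 of processes PTX gave -0.78 (adjusted p = 0.0567). In somata Grm3 differed by -0.49 (standard error 0.127, interval -0.77 to -0.21, adjusted p = 0.0631), and this difference passed with the replicate block (adjusted p = 0.00207). For Grm3 the log2 fold change in processes less that in somata was -0.31 (interval -0.70 to 0.08, adjusted p = 1).

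Astrocyte markers were measured beside the PTX difference of Grm3. In processes none of the 9 markers was called with PTX by the quasi-likelihood test (2 had an unadjusted p under 0.05, the likelihood ratio test called 1, DESeq2 0 and the replicate block 1 higher and 1 lower), and their median log2 fold change was -0.11, while the summed level was lower in both PTX libraries than in either control library. Of all 14309 tested genes in processes, 16.6% had an unadjusted p under 0.05 and 11.2% were called with the block. The likelihood ratio test called 949 of these genes and DESeq2 655. Gfap, the intermediate filament of astrocytes, had a log2 fold change of -0.31 there (adjusted p = 0.458), and S100b, a calcium-binding protein of astrocytes, had -0.14 (adjusted p = 0.709). Gfap made up most of the summed level, with means of 10200 CPM in processes control and 8250 CPM in processes PTX. The markers Slc1a3 (623 and 824 CPM) and Sox9 (43.5 and 45.3 CPM) had higher means with PTX. In somata 1 of the 9 astrocyte markers was called lower, the gap junction gene Gja1 with -0.61, and 2 were with the replicate block. The 5 pan-neuronal markers had a median of -0.47 in processes, where 1 was called lower, and of -0.38 in somata, where 1 was called lower. With the replicate block 4 of them were called lower in processes and 3 in somata, and as many had an unadjusted p under 0.05. The likelihood ratio test called 2 in processes and 1 in somata, and DESeq2 1 and 0. Of all tested genes 2.1% were called lower in processes and 1.5% in somata, or 6.09% and 6.79% with the block. The part of these genes in the differences of Grm3 and Grm5 was not tested.

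Grm2, the second group II receptor and largely a presynaptic one, was near the limit of detection in processes. It had 51 and 40 reads in somata control, 36 and 32 in somata PTX, 6 and 8 in processes control and 5 and 4 in processes PTX. The corresponding levels ran from 1.57 to 2.17 CPM in somata control down to 0.402 to 0.574 CPM in processes PTX. Its PTX differences were -0.49 in somata (interval -1.16 to 0.18, adjusted p = 0.52) and -0.72 in processes (interval -1.95 to 0.51, adjusted p = 0.591). Neither passed, while both intervals reach below -1.

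Group III held the presynaptic receptors. Grm7, whose product mGlu7 has a low affinity for glutamate, was measured at 23.3 and 18.1 CPM in somata control and 20.6 and 17.4 CPM in somata PTX. Its process libraries had 13 and 9.51 CPM in control and 12.9 and 8.65 CPM after PTX. Control and PTX libraries overlapped in both compartments.

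The PTX difference of Grm7 was -0.12 in somata (interval -0.55 to 0.31, adjusted p = 0.857) and -0.08 in processes (interval -0.61 to 0.45, adjusted p = 0.921). Its sign depended on single libraries, being 0.07 in somata without replicate 1 of somata control and 0.17 and 0.19 in processes without replicate 1 of processes control or replicate 2 of processes PTX. Replicate 1 exceeded replicate 2 in all 4 groups.

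Grm4, for mGlu4, had between 37 and 90 reads per library. It was measured at 3.53 CPM in both somata control libraries, 3.16 and 2.67 CPM in somata PTX, 6.69 and 4.35 CPM in processes control and 4.82 and 4.42 CPM in processes PTX. Its PTX difference was -0.27 in somata (interval -0.78 to 0.24, adjusted p = 0.677) and -0.26 in processes (interval -0.83 to 0.31, adjusted p = 0.686), and without replicate 1 of processes control the latter was 0.09.

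Grm8, for mGlu8, was the receptor whose PTX differences pointed in opposite directions in the 2 compartments. It had 67 and 60 reads in somata control and 107 and 77 in somata PTX, against 32 and 22 in processes control and 23 and 19 in processes PTX. In CPM these were 2.85 and 2.35, 3.85 and 3.26, 3.57 and 2.58, and 2.64 and 1.91. The somata PTX libraries lay above both somata control libraries, whereas PTX and control libraries overlapped in processes.

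The log2 fold change of Grm8 with PTX was 0.46 in somata (interval -0.08 to 0.99, adjusted p = 0.428) and -0.45 in processes (interval -1.15 to 0.26, adjusted p = 0.543). The log2 fold change in processes less that in somata was -0.90 (standard error 0.402), and its p was 0.0469 before adjustment and 1 after it. The replicate block gave an adjusted p of 0.489. Over all genes this contrast called 0% in the quasi-likelihood test, and 4% had an unadjusted p under 0.05. The likelihood ratio test called 4 genes by this contrast and DESeq2 4 genes, and none of the 6 receptors was called by the contrast in any of the fits.

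Over the 6 receptors together, 5 log2 fold changes with PTX were negative in somata and 6 in processes, with medians of -0.38 and -0.50 against -0.01 and -0.01 over all tested genes. In somata 5 receptors had control and PTX libraries that did not overlap, 4 of them lower and 1 higher with PTX, where 49% of all tested genes did not overlap (24% higher and 25% lower). In processes this held for 3 receptors, all lower, against 42.4% of all tested genes (20.1% higher and 22.3% lower). None of the 6 was called higher with PTX, against 2.09% of all tested genes in somata and 1.64% in processes. The plot of fitted differences shows the intervals of all 6 receptors.

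**Figure D2:**
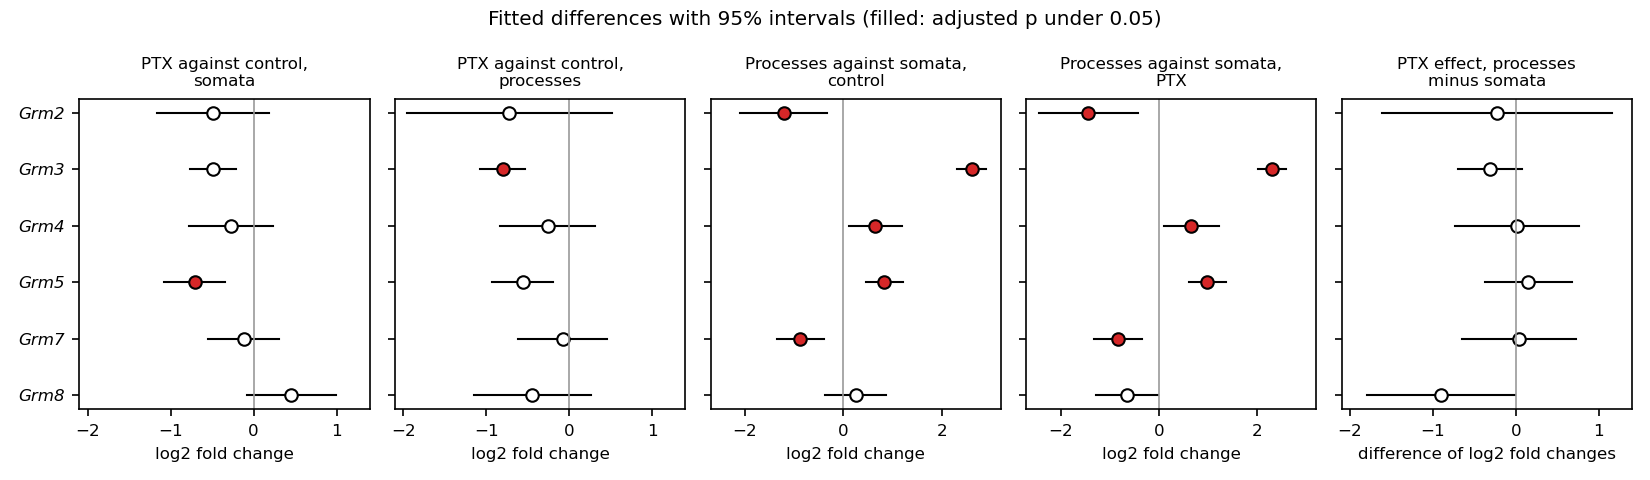
Fitted difference of each receptor (horizontal axes, log2 scale) in the 5 comparisons, with points for the estimate and lines for the 95% interval, and red points where the adjusted p of the quasi-likelihood test was under 0.05. Red points are Grm5 for PTX in somata, Grm3 for PTX in processes and 5 receptors in each comparison of the compartments except Grm8.

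The comparison of processes with somata asked where the receptor RNAs lie. Compartment differences are relative to the typical tested gene: scaled by library size only, without TMM factors, the median of all tested genes moved from -0.05 to -1.86 in control cultures, and the differences of Grm5 (-0.96), Grm4 (-1.17) and Grm8 (-1.57) were then negative. In control cultures 5 of the 6 receptors were called, 3 higher and 2 lower in processes, while 47.7% of all tested genes were called (25.8% higher and 21.9% lower). In PTX cultures the counts were also 3 higher and 2 lower, against 49.8% of all tested genes (25.7% higher and 24% lower). Somata and process libraries did not overlap for 5 receptors in control cultures, 3 higher and 2 lower, where 74.9% of all tested genes did not (35.9% higher and 39% lower). In PTX cultures they did not overlap for 6 receptors, 3 higher and 3 lower, where 75.9% of all tested genes did not (36.2% higher and 39.7% lower).

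Grm3 had the largest compartment difference of the receptors under TMM scaling, with 2.60 (interval 2.32 to 2.89, adjusted p = 5.13e-07) in control cultures and 2.29 (interval 2.0 to 2.58, adjusted p = 6.9e-07) in PTX cultures. In control cultures 99.4% of all tested genes had a lower log2 fold change than Grm3. Its range over fits without any 1 library was 2.46 to 2.76. Astrocyte markers went both ways: Gfap was higher in processes by 2.60 (adjusted p = 3.15e-06) and S100b by 2.16 (adjusted p = 1.94e-06), 5 of the 9 markers were called higher and 2 lower, and their median was 0.61. The 2 called lower were Slc1a3 (-0.56, adjusted p = 0.0143) and Gja1 (-0.38, adjusted p = 0.0268). Among pan-neuronal genes, 3 of 5 were called higher and 2 lower, with Map2, a microtubule protein of dendrites, rising in control cultures from 936 ± 69.4 CPM in somata to 4610 ± 120 CPM on the process side (SD, n = 2 each). Map2 rose most of the 5, and the 2 called lower were Tubb3 (-0.57, adjusted p = 0.0159) and Snap25 (-0.37, adjusted p = 0.0375). Whether the Grm3 RNA of the lower side came from neuronal or astrocytic processes was not tested.

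Grm5 was higher in processes by 0.83 (interval 0.46 to 1.2, adjusted p = 0.0021) in control cultures and by 0.98 (interval 0.61 to 1.36, adjusted p = 0.000734) in PTX cultures. Since Grm3 differed more than Grm5, their proportion differed between the compartments whatever the scaling. For each read of Grm5 there were 0.236 to 0.325 reads of Grm3 in the 4 somata libraries and 0.692 to 1.15 in the 4 process libraries, with no overlap.

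Grm7 had differences of -0.87 (interval -1.35 to -0.39, adjusted p = 0.00735) in control and -0.83 (interval -1.31 to -0.35, adjusted p = 0.00895) in PTX cultures. Leaving out replicate 1 of somata control moved the control difference to -0.68 (adjusted p = 0.0543), and leaving out replicate 2 of processes control moved it to -0.67 (adjusted p = 0.0747). In PTX cultures it was -0.70 when replicate 1 of somata PTX was left out (adjusted p = 0.0519) and -0.57 when replicate 2 of processes PTX was (adjusted p = 0.0954).

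Grm2 was lower in processes, with log2 fold changes of -1.21 (interval -2.09 to -0.33, adjusted p = 0.0288) in control and -1.44 (interval -2.44 to -0.44, adjusted p = 0.022) in PTX cultures. These calls rest on few reads, and DESeq2 gave nearly the same differences with adjusted p-values of 0.13 and 0.0967. The control call was also lost without replicate 1 of somata control (adjusted p = 0.144) or without replicate 1 or 2 of processes control (adjusted p = 0.153 and 0.0593). The call in PTX cultures was lost without replicate 1 or 2 of somata PTX or replicate 2 of processes PTX (adjusted p = 0.0657, 0.0662 and 0.137). For Grm4 the differences were 0.65 (adjusted p = 0.0475) and 0.66 (adjusted p = 0.0483). They were not called by DESeq2 (adjusted p = 0.114 and 0.105) or with upper quartile factors (0.45 and 0.48, adjusted p = 0.141 and 0.123), and without replicate 1 of processes control the control difference was 0.30 (adjusted p = 0.414). The call of Grm4 held in 1 of 8 fits without a library in control cultures and in 2 of 8 in PTX cultures.

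Grm8 did not pass in either treatment, with 0.25 (interval -0.37 to 0.87, adjusted p = 0.493) in control and -0.65 (interval -1.28 to -0.03, adjusted p = 0.0784) in PTX cultures. The PTX value passed with the replicate block (adjusted p = 0.0361). Without replicate 1 of processes control, the control value was -0.01.

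**Figure D3:**
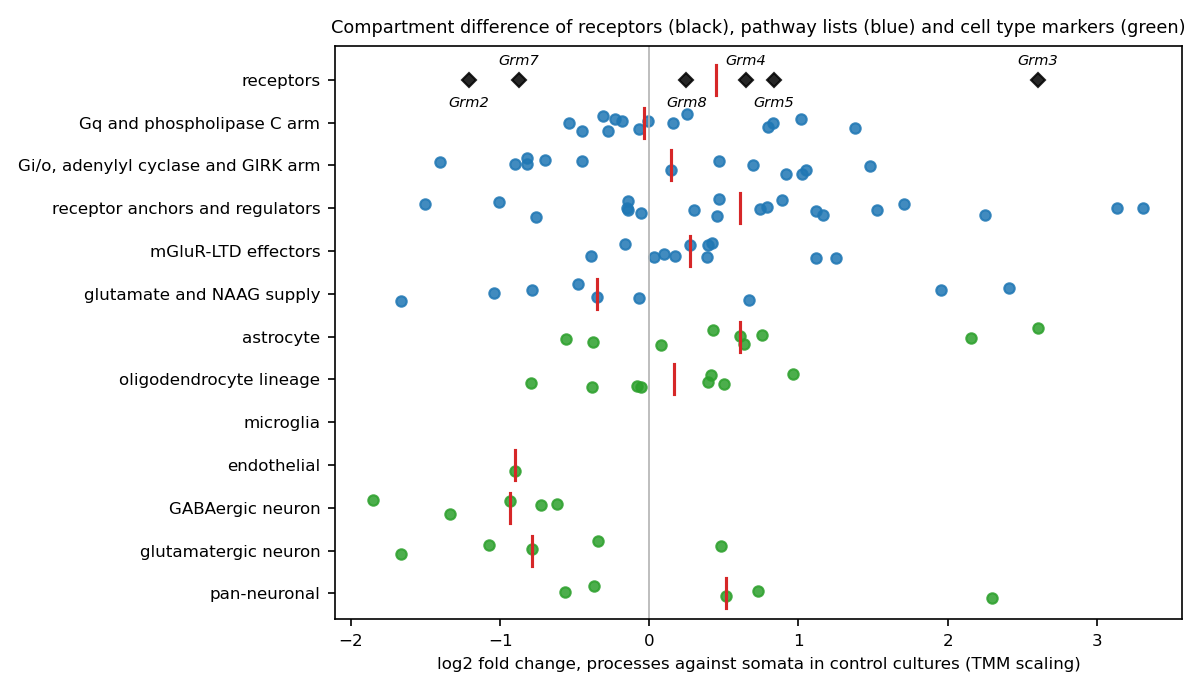
Log2 fold change of processes against somata in control cultures (horizontal axis) for the 6 receptors (black diamonds), the genes of 5 pathway lists (blue) and of 7 cell type marker lists (green), 1 point for each tested gene, with red bars at the medians. Grm3 lies at 2.60, beside the highest astrocyte marker and Map2, while Grm7 and Grm2 lie below 0 along with most GABAergic and glutamatergic markers. The astrocyte markers spread from -0.56 to 2.60 and the pan-neuronal ones from -0.57 to 2.30.

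The genes that carry the receptors' signals were counted in 5 lists, to be read against the shares over all tested genes. With PTX these were 2.09% higher and 1.5% lower in somata and 1.64% higher and 2.1% lower in processes, and with the replicate block 14% were called in somata (6.79% lower) and 11.2% in processes (6.09% lower). An unadjusted p under 0.05 was held by 15.6% of all tested genes in somata and 16.6% in processes. Of the 14309 tested genes the likelihood ratio test called 972 in somata and 949 in processes, and DESeq2 503 and 655. For the Gq and phospholipase C arm, which relays mGlu5, none of 14 tested genes was called higher with PTX, 3 were called lower in somata and 2 in processes, with medians of -0.32 and -0.44. With the replicate block these became 0 higher and 7 lower in somata and 2 higher and 7 lower in processes. Ptk2b, a calcium-activated tyrosine kinase, had -0.88 in somata (adjusted p = 0.0311) and -1.26 on the process side (adjusted p = 0.0114). Plcb1, the phospholipase C isoform of hippocampal Gq signalling, fell by 0.45 in somata (adjusted p = 0.0443) and had -0.45 in processes (adjusted p = 0.059, or 0.00503 with the block).

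For the Gi/o, adenylyl cyclase and GIRK channel arm, which relays group II and III receptors, 0 of 13 tested genes were called with PTX in the quasi-likelihood test in either compartment. In somata 3 and in processes 2 of them had an unadjusted p under 0.05, against 15.6% and 16.6% of all tested genes. The likelihood ratio test called 1 in each compartment and DESeq2 called 0. With the replicate block 1 was called higher and 2 lower in each compartment. The medians were -0.14 in somata and -0.06 in processes.

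Of the 20 anchors and regulators of the receptors, 4 were called higher and 1 lower in somata (4 and 4 with the replicate block), and 4 higher and 6 lower in processes. Rgs4, which accelerates the shut-off of Gq and Gi signals, rose from 82.1 ± 13.4 to 194 ± 4.93 CPM (SD, n = 2) in somata (log2 fold change 1.24, adjusted p = 0.000588) and from 40.9 ± 1.98 to 83.4 ± 4.71 CPM in processes (1.03, adjusted p = 0.00392). Rgs2, which acts mainly on Gq, rose in somata (1.13, adjusted p = 0.000646) and in processes (0.96, adjusted p = 0.0108). Grasp, whose product tamalin is a scaffold of group I receptors, rose by 1.63 in somata (adjusted p = 0.00107), from a level of 3.15 ± 0.413 CPM (SD, n = 2), and by 1.04 on the process side (adjusted p = 0.0382).

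On the lowered side in processes were Shank2, a scaffold beneath Homer, with -1.06 (adjusted p = 0.00308) and Elfn2, an adhesion protein that binds group III receptors across the synapse, with -1.06 (adjusted p = 0.00392). In somata Elfn2 was also called lower (-0.59, adjusted p = 0.0352), and Shank2 had -0.46 (adjusted p = 0.0772, or 0.00327 with the replicate block). The 3 Homer genes, singled out after their values were seen, went different ways. Homer1 was called higher in somata (0.51, adjusted p = 0.0395) and in processes (0.54, adjusted p = 0.0382), where Homer2 (-0.61, adjusted p = 0.0153) and Homer3 (-0.82, adjusted p = 0.0404) were called lower. In somata Homer2 had -0.30 (adjusted p = 0.222) and Homer3 -0.34 (adjusted p = 0.416). Gene counts do not separate the long, receptor-linking forms of Homer1 from the short, activity-induced form.

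Of 11 genes for effectors of mGluR-dependent long-term depression, none was called with PTX in somata by the quasi-likelihood test (4 had an unadjusted p under 0.05, the likelihood ratio test called 2, DESeq2 1 and the replicate block 2 higher and 4 lower), and 1 was called lower in processes (1 higher and 3 lower with the block). This was Eef2k, the kinase of elongation factor 2, with -0.62 (adjusted p = 0.0203), which had -0.43 in somata (adjusted p = 0.0565, or 0.00397 with the block). Arc, an activity-induced regulator of AMPA receptor uptake, had 0.43 in somata (adjusted p = 0.257) and 0.41 in processes (adjusted p = 0.278), and both passed with the replicate block (adjusted p = 0.0212 and 0.0491).

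For the supply of glutamate and NAAG, 9 of 10 listed genes were tested, and with PTX 0 were called in somata by the quasi-likelihood test (4 had an unadjusted p under 0.05, the likelihood ratio test called 1, DESeq2 0 and the block 1 higher and 3 lower) and 1 higher and 1 lower in processes. Slc17a7, the vesicular glutamate transporter VGLUT1, rose by 0.74 in processes (adjusted p = 0.0172) and had -0.33 in somata (adjusted p = 0.249), which passed with the block (adjusted p = 0.0182). The difference between these, 1.07, did not pass in the quasi-likelihood test (adjusted p = 0.758). It did pass in the likelihood ratio test (adjusted p = 0.00401) and under the replicate block (adjusted p = 0.000451). Folh1, the astrocytic enzyme that breaks down the mGlu3 ligand NAAG, had -0.30 in processes and -0.38 in somata with PTX, and neither passed. It was 1.96 higher in processes than in somata on the log2 scale in control cultures (adjusted p = 7.7e-06).

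**Figure D4:**
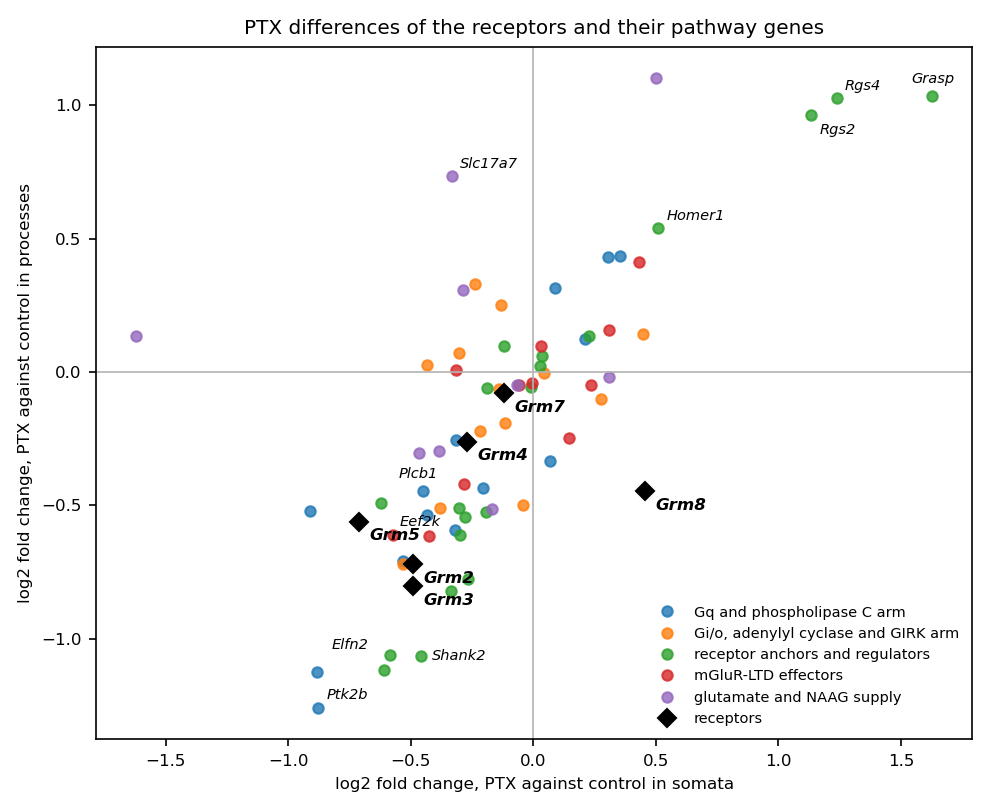
Log2 fold change with PTX in somata (horizontal axis) and in processes (vertical axis) for the 6 receptors (black diamonds) and each tested gene of the 5 pathway lists (coloured points). Grm3, Grm5 and Grm2 lie in the lower left with Ptk2b, whereas Rgs2, Rgs4 and Grasp lie in the upper right and Grm8 lies in the lower right.

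Between the compartments of control cultures, the 20 anchors and regulators had a median of 0.61, with 12 called higher and 3 lower in processes. Of all tested genes 47.7% were called here, 25.8% higher and 21.9% lower, and 57.8% with the replicate block, and the counts of the lists are descriptions beside those shares. Shank1 (3.31, adjusted p = 1.22e-06), Shank3 (3.14, adjusted p = 6.92e-07) and Homer2 (2.25, adjusted p = 5.98e-07) were the strongest by p-value, as they were in PTX cultures (2.80, 2.80 and 1.94). The Gq arm had 4 genes called higher and 1 lower (5 and 3 with the replicate block) with a median of -0.04, the Gi/o arm 5 higher and 6 lower with a median of 0.14, the depression effectors 4 higher and 1 lower with a median of 0.28, and the supply genes 3 higher and 3 lower with a median of -0.35. Within the Gi/o arm, Gnai2, a Gi alpha subunit (1.05, adjusted p = 3e-05), and Adcy5, an adenylyl cyclase that Gi inhibits (1.48, adjusted p = 7.1e-05), were higher in processes, whereas Kcnj3, a subunit of GIRK potassium channels, was lower (-1.40, adjusted p = 0.000208). With library size only, the median of all genes lay at -1.86, and these directions are relative to the TMM scaling.

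The genes whose pattern over the 8 libraries was most like that of a receptor were found by Pearson's r of log2 CPM over genes averaging 5 CPM or more, as a description, since the libraries share compartments and treatments. For Grm3 they were Spop (r = 0.997), Map1a (r = 0.996) and rnf141 (r = 0.996). Map1a, a dendritic microtubule-associated protein, had log2 fold changes of 2.46 for processes against somata in control cultures and of -0.35 and -0.75 with PTX in somata and processes. For Grm5 close genes were Zbtb20 (r = 0.99) and Csgalnact1 (r = 0.98), and for Grm7 Abcc1 (r = 0.998), Reck (r = 0.99) and Runx1t1 (r = 0.99). For the receptors with few reads the values were 0.98 to 0.99 for Grm2 (Exoc6, Gprasp1 and Kat8), 0.98 to 0.99 for Grm4 (Myl12b, Nqo1 and Stim1) and 0.90 to 0.91 for Grm8 (among them Ephb6 and LOC100912262).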

How the data were processed

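Per the study's methods, the authors trimmed the reads, mapped them to the rat genome (Rnor 6.0) with Subread and the Ensembl annotation, counted them with featureCounts and added up the counts that shared a gene symbol. The submitters' processing notes name STAR, featureCounts and edgeR, and which aligner made the table was not settled here. The deposited counts are whole numbers without normalization. Because they were summed by symbol, splice forms are not separated, and reads of overlapping genes are of uncertain origin. The authors' tables of their PTX comparisons (log2 fold changes, log2 CPM, test statistics and p-values) were not used.

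Genes entered the fit if 2 or more libraries each held over 20 of their reads. A single model with a coefficient for each group covered all 8 libraries in edgeR 4.0.16 (R 4.3.3) with TMM factors, and contrasts were tested with the quasi-likelihood test in place of the authors' likelihood ratio test, with Benjamini-Hochberg adjustment over all tested genes and a threshold of 0.05. The standard error of a log2 fold change was taken as its size over the root of the F statistic, and 95% intervals use the test's degrees of freedom. The fits were tested on simulated data. These held no shift between replicate numbers, so they cannot decide between the fits with and without the replicate block. The members and lists were chosen with earlier results of these data known. Named genes are the 6 receptors, for each pathway list and comparison up to 3 called genes with the smallest p-values, and the 3 genes most like each receptor. Some genes that this rule picks are not reported here.

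Replicate numbers come from the labels, which do not state that same-numbered libraries are paired. The deviation of replicate 2 from replicate 1 correlated across genes with r between 0.274 and 0.54 for all 6 pairs of groups. The main fit leaves this shared shift out, and its calls can differ from those with the replicate block. Alternatives were the replicate block, the likelihood ratio test, DESeq2 1.42.0, other scalings and filters, fewer libraries in the fit and leaving out each library. Replicate libraries differed by more than counting noise (chi-square per degree of freedom 9.11 to 21.1).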

Additional observations from a re-analysis of the deposited data

Results flagged for a closer look

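Grm8 had PTX differences of opposite direction in the compartments. Between same-numbered libraries, log2 CPM was higher after PTX by 0.42 and 0.45 in somata, while in processes the differences were -0.42 and -0.41. The log2 fold change in processes less that in somata was -0.90 in the fit, with an adjusted p of 1 and an unadjusted p of 0.0469, and the value ranged from -1.14 to -0.65 when any 1 library was left out. The process libraries held 19 to 32 reads of Grm8 each.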

How the results depend on the processing

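The number of receptors called with PTX was 1 in somata and 1 in processes. It was 2 in each compartment with the likelihood ratio test, DESeq2, no filter or the replicate block, 0 in somata with library size only, and 0 to 1 in both when a library was left out. Of the 5 receptors called between compartments, DESeq2 called 3 in control and 3 in PTX cultures. Keeping only genes with 10 or more reads in each library left 3 called in control. That filter took Grm2, with 4 to 8 reads in the process libraries, out of the test. The replicate block changed the calls of Grm3 in somata, Grm5 in processes and Grm8 between compartments of PTX cultures, and no other receptor call.

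Over all genes, PTX calls in somata (513) were 972 with the likelihood ratio test, 1141 with no filter, 2002 with the replicate block and 117 to 568 without 1 library. In processes (535) they were 949, 1129, 1601 and 97 to 478, and 298 with only the libraries compared. The effect of PTX in processes minus somata (0) gave 4 with the likelihood ratio test, 4 with DESeq2, 10 with no filter and 15 with the block. Between compartments, 6823 and 7121 genes became 13462 and 13499 with library size only. Fitted with that scaling, the differences of processes against somata in control cultures were -1.17 for Grm4, -0.96 for Grm5 and -1.57 for Grm8. In PTX cultures the same comparison gave -1.17 for Grm4 and -0.83 for Grm5.

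Without 1 library, PTX differences ranged from -0.31 to 0.07 for Grm7 in somata, from -0.54 to 0.087 for Grm4 and -0.39 to 0.19 for Grm7 in processes, and Grm8 between compartments of control cultures from -0.006 to 0.46. The difference of the PTX effects ranged from -0.49 to 0.027 for Grm2, -0.27 to 0.36 for Grm4, -0.066 to 0.41 for Grm5 and -0.27 to 0.31 for Grm7. The cause of these changes was not tested. With a prior count of 0.5, 2 of the 3 genes most like Grm2 remained. The effect of depth was not tested.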
